A study of Mus musculus with 23 samples.

Results

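The MHC class II genes and Ciita were followed as a set of 10 genes, taken by name out of 24940 gene symbols: Cd74, H2-Aa, H2-Ab1, H2-Eb1, H2-DMa, H2-DMb1, H2-DMb2, H2-Oa, H2-Ob and Ciita. No measured value was used to choose them, and where a gene had several transcripts the one with the highest mean was kept. RNA-seq of polyA RNA had been made from subcutaneous tumors of C57BL/6 mice (C57BL/6JBomTac, adult females aged 10 to 15 weeks), each grown from 500000 injected cells of a syngeneic line: B16-F10 melanoma (B16), EO771.LMB breast carcinoma (EO771), LL/2 lung carcinoma (LL2), MC38 colon carcinoma or Pan02 pancreatic ductal carcinoma. There were 15 whole-tumor libraries, 3 per model, each from a tumor fragment taken at endpoint. There were also 8 libraries of cancer-associated fibroblasts (CAFs), 2 per model, from EO771, LL2, MC38 and Pan02 tumors, sorted over several rounds as FAP+ cells after magnetic depletion of CD45+ cells. All groups carried an engrafted tumor, no treatment or gene change was applied, and no tumor-free tissue and no B16 CAFs were analysed here. Some mice carried a tumor in each flank and the labels tie no library to a mouse, so the p-values measure the spread between these samples.

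MHC class II molecules are heterodimers that show peptides from the endosomal route to CD4+ T cells. They are made at high level by dendritic cells, B cells and macrophages, and by many other cells, fibroblasts and some epithelial cells included, after interferon-γ. H2-Aa and H2-Ab1 encode the α and β chains of I-A and H2-Eb1 the β chain of I-E, which C57BL/6 mice do not complete because their Ea gene is inactive. Cd74 encodes the invariant chain, the chaperone of newly made class II dimers. H2-DMa pairs with H2-DMb1 or H2-DMb2 in H2-M, which loads peptide, and H2-Oa with H2-Ob in H2-O, which restrains H2-M and is best known from B cells and the thymus. Ciita encodes the coactivator CIITA, the master regulator of the family, which binds no DNA itself but joins factors seated on the X and Y boxes of class II promoters.

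The 8 H2 genes lie within the class II region of chromosome 17 in build mm10, from H2-Oa at 34092379-34095234 to H2-Eb1 at 34305867-34316674. H2-Aa (34282751-34287771) is read from the minus strand and the other 7 H2 genes from the plus strand. Cd74 and Ciita lie on other chromosomes. The values below are read counts over the exons of 1 transcript per gene, including its untranslated exon parts.

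Promoters of H2 genes are shown because class II promoters are where CIITA is known to act. RefSeq promoter sequence (mm10, 250 bases before to 50 after the start) matched 7 of the 10 members, and H2-Ab1, Cd74 and Ciita had none. Capitals mark GNAAC, letters at the start of the X box, and ATTGG, the core of the Y box, and the letters were chosen after these sequences had been read. Each window holds 80 bases, 5′ to 3′ on the strand of its gene: chr17:34287842-34287921 (minus strand) for H2-Aa, chr17:34305758-34305837 for H2-Eb1, chr17:34153080-34153159 for H2-DMb1, chr17:34145109-34145188 for H2-DMb2, chr17:34092286-34092365 for H2-Oa and chr17:34238798-34238877 for H2-Ob, all plus strand but the first.
H2-Aa: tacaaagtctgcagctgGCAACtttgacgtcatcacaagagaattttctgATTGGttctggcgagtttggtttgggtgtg
H2-Eb1: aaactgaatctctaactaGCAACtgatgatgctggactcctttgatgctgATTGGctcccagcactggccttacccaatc
H2-DMb1: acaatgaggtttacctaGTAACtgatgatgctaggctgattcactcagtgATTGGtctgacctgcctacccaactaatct
H2-DMb2: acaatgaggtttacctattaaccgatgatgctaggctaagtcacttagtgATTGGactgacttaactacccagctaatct
H2-Oa: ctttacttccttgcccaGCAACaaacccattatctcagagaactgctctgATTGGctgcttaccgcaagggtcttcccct
H2-Ob: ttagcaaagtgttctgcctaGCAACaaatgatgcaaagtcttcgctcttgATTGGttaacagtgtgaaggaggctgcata
In 5 of the 7 members the starts of the capital runs lay 30 to 33 bases apart, 33 in H2-Aa, H2-DMb1 and H2-Oa, 32 in H2-Eb1 and 30 in H2-Ob. H2-DMb2 held ATTGG with TTAAC in place of GNAAC at that distance, and neither of the 2 H2-DMa promoters held the pair. Searched on both strands over 32851 RefSeq promoters of the same length, GNAAC stood in 84.8%, ATTGG in 37.4%, and the pair at this spacing in 0.712%. The spacing searched equalled the span found in these members, so these shares cannot serve as a test of the members. Such matches describe letters in the window and not occupied sites. The H2-DMb1 and H2-DMb2 windows resemble each other, and so do their transcripts: 369 runs of 50 bases were common to both, 22.7% of the runs of H2-DMb1 and 21.2% of those of H2-DMb2, so that reads could be exchanged between these genes.

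In whole tumors 9 of the 10 genes had their highest mean in Pan02, and H2-Oa had it in MC38. The level of Cd74 (chromosome 18, 60803849-60812652, plus strand), in counts scaled to library size by TMM (CPM), was 1679, 4957 and 4656 in the 3 Pan02 tumors. It was 377, 1094 and 595 in B16, 912, 1138 and 818 in EO771, 215, 570 and 1886 in LL2, and 1230, 661 and 1152 in MC38. Pan02 tumors 2 and 3 lay above all other tumors, whereas Pan02 tumor 1 lay below LL2 tumor 3. In the edgeR quasi-likelihood test, which set a model against the averaged remaining 4, Cd74 was higher in Pan02 by 2.10 on the log2 scale (SE 0.44, adjusted p = 0.001).

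The class II chains followed Cd74. H2-Aa stood at 425, 1331 and 1206 CPM in Pan02 against 60.2 to 566 CPM in the other 12 tumors, and was higher by 1.90 (log2, SE 0.44, adjusted p = 0.0021). For H2-Ab1 the range was 773 to 2408 CPM in Pan02 and 114 to 1081 CPM elsewhere, a difference of 2.04 (SE 0.45, adjusted p = 0.0015). H2-Eb1 ranged from 609 to 1944 CPM in Pan02 and from 83.7 to 779 CPM elsewhere, a difference of 2.06 (SE 0.44, adjusted p = 0.0012). In each of these 3 genes LL2 tumor 3 reached above Pan02 tumor 1, so the groups overlapped at a single pair of tumors.

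**Figure D1:**
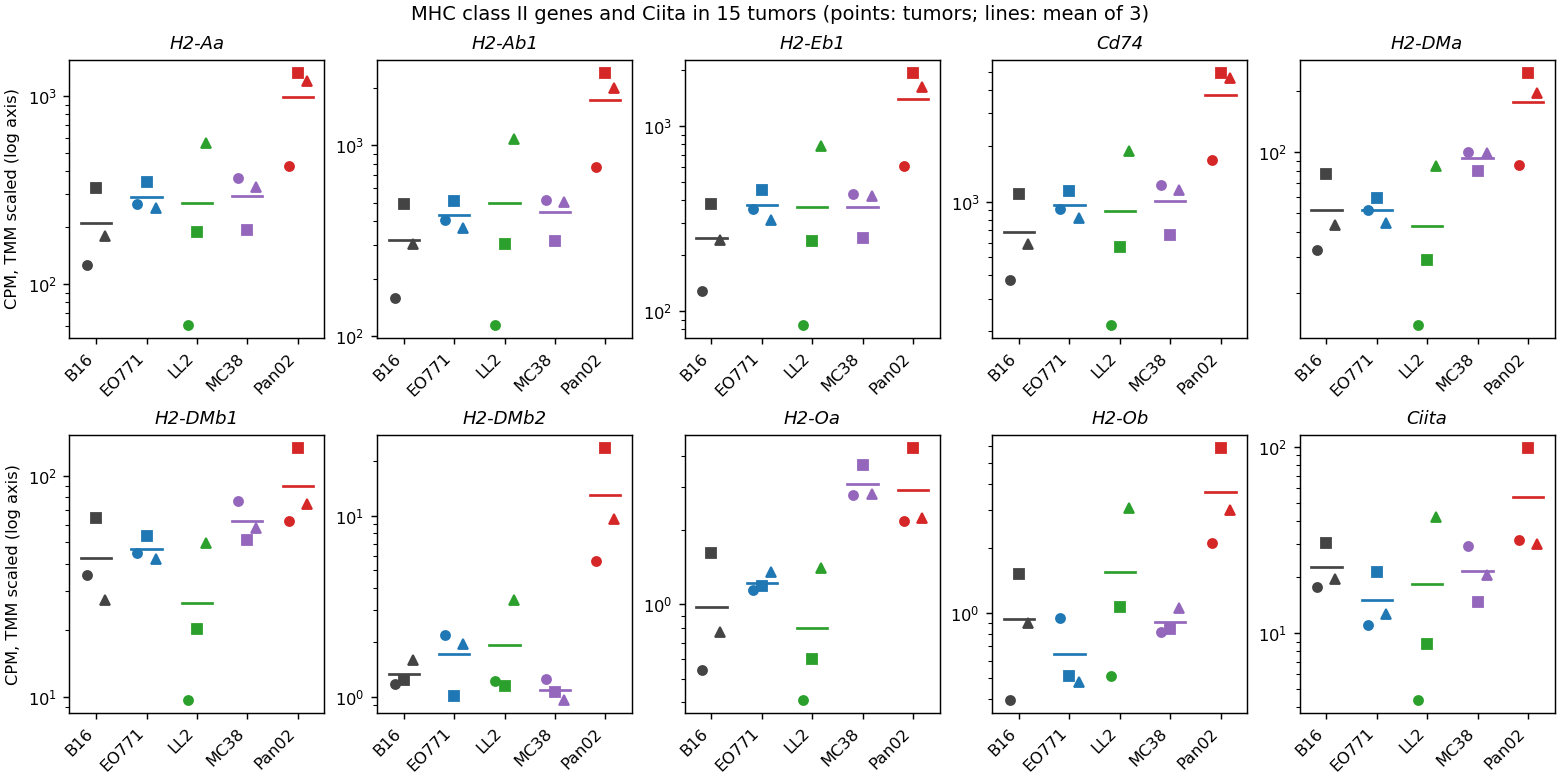
Level of each of the 10 genes in CPM (log axis) in the 15 tumors, by model; circles, squares and triangles are tumors 1, 2 and 3 and lines are means. Pan02 tumor 2 was the highest tumor of its model for all 10 genes, and H2-DMb2 is the gene in which the Pan02 tumors, at 5.64 to 23.6 CPM, lie apart from all others, at 0.958 to 3.44 CPM.

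Among the peptide-loading genes, H2-DMb2 differed most. It was measured at 5.64, 23.6 and 9.54 CPM in Pan02, at 1.18, 1.24 and 1.60 in B16, 2.20, 1.02 and 1.96 in EO771, 1.22, 1.15 and 3.44 in LL2, and 1.25, 1.07 and 0.958 in MC38. All 3 Pan02 tumors were above all other tumors, and the difference was 3.10 (log2, SE 0.35, adjusted p = 5.6e-06). It was the only member with such a separation, which 8.93% of the 15722 genes tested showed. H2-DMa, the partner chain, ranged from 86.2 to 246 CPM in Pan02 and from 13.9 to 100.2 CPM elsewhere (difference 1.62, SE 0.38, adjusted p = 0.0021). H2-DMb1 ranged from 62.6 to 134 CPM in Pan02 and from 9.64 to 76.8 CPM elsewhere (difference 1.08, SE 0.35, adjusted p = 0.015), the smallest of the 10 differences.

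The H2-O genes were low in all models. H2-Oa stood at 2.77, 3.67 and 2.81 CPM in MC38 and at 2.17, 4.32 and 2.25 CPM in Pan02, against 0.408 to 1.62 CPM in the other 9 tumors. It was the member for which MC38 stood with Pan02, being higher in MC38 by 1.22 (SE 0.32, adjusted p = 0.0062) and in Pan02 by 1.12 (SE 0.33, adjusted p = 0.0093), with an adjusted p of 0.88 between these 2 models. H2-Ob did not share this pattern in the values, at 0.818, 0.844 and 1.06 CPM in MC38 and 2.12, 5.87 and 3 CPM in Pan02, and was higher in Pan02 by 1.88 (SE 0.42, adjusted p = 0.0015). These levels rest on 5.5 to 74 reads per tumor for H2-Oa and 4 to 87 for H2-Ob. The GENCODE model of the counted H2-Oa transcript shares 321 of 1088 bases (29.5%) with an antisense gene, BC051537, and as the libraries were unstranded the reads of both cannot be told apart there, although BC051537 itself did not exceed 0.345 RPKM in any tumor.

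Ciita (chromosome 16, 10480072-10527640, plus strand) stood at 31.6, 98.7 and 30.1 CPM in Pan02, 17.8, 30.4 and 19.4 in B16, 11, 21.3 and 12.6 in EO771, 4.35, 8.76 and 41.8 in LL2, and 29.4, 14.6 and 20.6 in MC38. Pan02 tumor 2 was far above all others, whereas Pan02 tumors 1 and 3 lay among the highest tumors of B16, MC38 and LL2. The difference was 1.48 (SE 0.48, adjusted p = 0.017), and it was the only member that did not pass the test for any difference among the 5 models (adjusted p = 0.095).

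Counted over the set, 10 of 10 members were called higher in Pan02 tumors (adjusted p under 0.05 and at least 1 on the log2 scale), where 18.8% of all genes were called higher and 7.93% lower. Without Pan02 tumor 2, the count was 7, since H2-DMb1 (0.68, adjusted p = 0.16), H2-Oa (0.73, adjusted p = 0.11) and Ciita (0.69, adjusted p = 0.30) were lost. In B16 and in EO771 tumors 0 members were called by edgeR, 0 had an unadjusted p under 0.05 and 0 were called by DESeq2, beside 13.1% of genes higher and 19.6% lower in B16 and 9.71% higher and 13.7% lower in EO771. In LL2, where 8.51% of genes were called higher and 8.29% lower, 2 members were lower, H2-Oa (-1.15, SE 0.39, adjusted p = 0.031) and H2-DMb1 (-1.12, SE 0.40, adjusted p = 0.039). In MC38, where 11.2% of genes were higher and 8.24% lower, H2-Oa was higher and H2-DMb2 lower (-1.33, SE 0.46, adjusted p = 0.028). The median of the 10 differences was 1.89 in Pan02, -0.83 in B16, -0.44 in EO771 and in LL2, and -0.27 in MC38, whereas the median over all genes tested lay between -0.04 and 0.05.

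The calls in LL2 and MC38 depended on single tumors. The H2-Oa call in LL2 was lost without LL2 tumor 1 (-0.85, adjusted p = 0.12) or 2 (-0.98, adjusted p = 0.13). The H2-DMb1 call was lost without either of these (-0.74, adjusted p = 0.13, and -0.96, adjusted p = 0.15) and without B16 tumor 2, EO771 tumor 1, EO771 tumor 2 or MC38 tumor 1, with adjusted p of 0.052 to 0.057. Without LL2 tumor 3, 8 members were called lower in LL2. The H2-DMb2 call in MC38 was lost without MC38 tumor 1, 2 or 3 (adjusted p = 0.065, 0.085 and 0.080).

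Pair by pair, the 4 models other than Pan02 could hardly be separated by these genes. Of 60 tests of a member between 2 of them, 3 passed an adjusted p of 0.05, where 52.1% of such tests passed over all genes. All 3 were H2-Oa, lower than in MC38 by 1.60 (log2) in B16, 1.31 in EO771 and 1.90 in LL2 (adjusted p = 0.0082, 0.028 and 0.0045). Of the 40 tests against Pan02, 31 passed, where 58.2% passed over all genes: 8 of 10 against B16, 9 against EO771, 8 against LL2 and 6 against MC38. In the test for any difference 9 of 10 members passed, close to the 91.1% of all genes that did, and the number fell to 4 without Pan02 tumor 2.

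The tumors of a model differed widely and in step. LL2 tumor 3 was the highest LL2 tumor for 10 of 10 members and LL2 tumor 1 the lowest for 9, with Cd74 at 1886 and 215 CPM. Pan02 tumor 2 was the highest of its model for all 10 and Pan02 tumor 1 the lowest for 9. In B16, tumor 2 was the highest for 9 members. MC38 tumor 1 was the highest MC38 tumor for 8, but MC38 tumor 2, the lowest for 7, was the highest for H2-Oa. The mean of Cd74 was accordingly 890 ± 880 CPM (SD, n = 3) in LL2 and 3764 ± 1812 CPM in Pan02, but 956 ± 164 CPM in EO771.

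**Figure D2:**
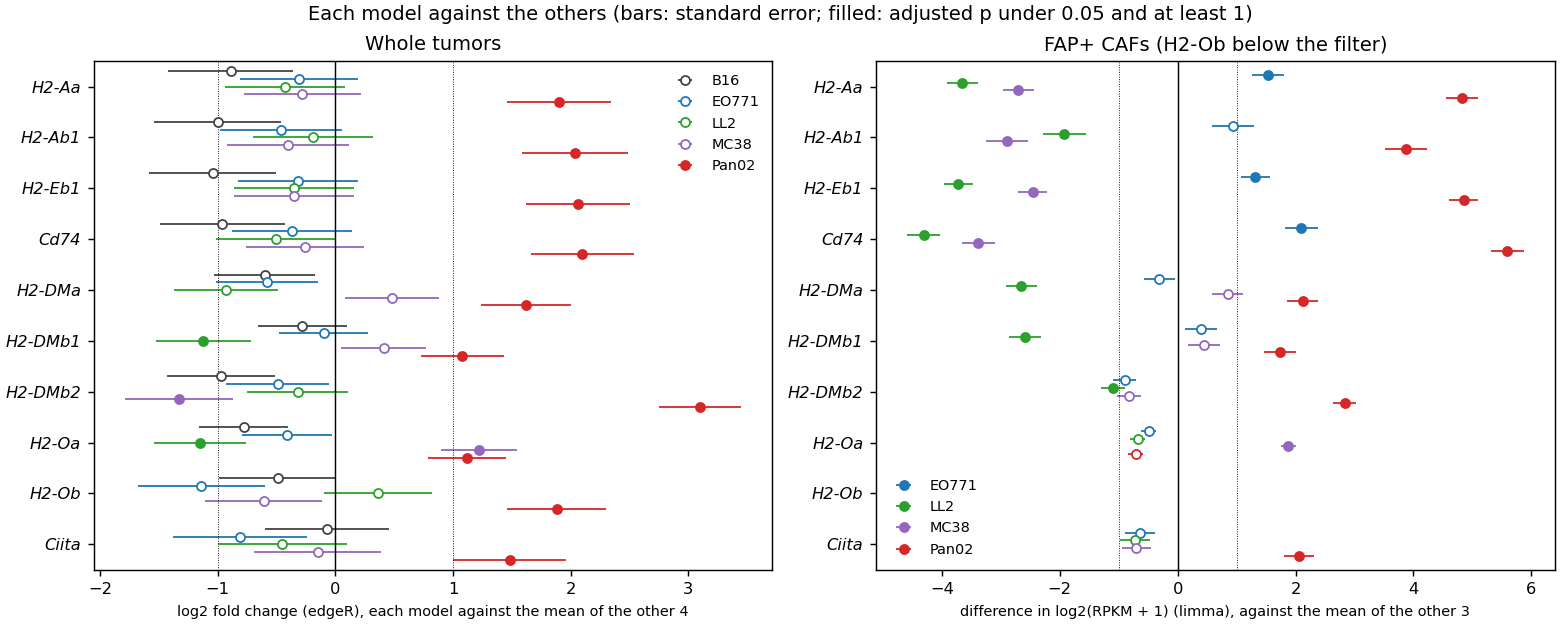
Difference of each model from the mean of the other models (log2, with SE) for the 10 genes, in tumors (edgeR) and in CAFs (limma on log2(RPKM + 1)); filled points were called. All 10 Pan02 tumor points are filled and positive, and in CAFs Cd74 is at 5.59 in Pan02, 2.10 in EO771, -3.38 in MC38 and -4.31 in LL2. The CAF points of H2-DMb2, Ciita and H2-Oa are drawn too, although these genes were tested only through the model in which they were highest. Their filled points are not read as calls.

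In CAFs the values of the models lay farther apart. The CAF values are RPKM, reads scaled to transcript length and library size, from a table normalized apart from the tumor counts, so tests stayed within each table, and differences are on the log2(RPKM + 1) scale, which understates those of low genes. The transcript with the highest mean was chosen within each table. Cd74 was thus counted on 1404 bases in tumors and 1213 in CAFs, and Ciita on 5644 and 5146. Ratios with these genes are therefore not on exactly the same scale in tumors and CAFs. The filter of at least 1 RPKM in at least 2 libraries was passed by 9 members. For 6 of them, Cd74, H2-Aa, H2-Ab1, H2-Eb1, H2-DMa and H2-DMb1, it was passed also without the model in which they were highest. H2-DMb2 and Ciita entered through Pan02 alone and H2-Oa through MC38 alone, so a difference in that model was set by the filter, and their values are given without a test. Cd74 stood at 556 and 246 RPKM in the Pan02 CAF libraries, 51.2 and 69.1 RPKM in EO771, 2.71 and 2.31 RPKM in MC38, and 1.28 and 1.07 RPKM in LL2. The models did not overlap, and the neighbours Pan02 and EO771 (adjusted p = 0.0007, limma) and EO771 and MC38 (adjusted p = 0.0001) differed, whereas MC38 and LL2 could not be separated (adjusted p = 0.13). Against the mean of the other models Cd74 was higher by 5.59 in Pan02 (SE 0.28, adjusted p = 7.7e-06) and by 2.10 in EO771 (adjusted p = 0.00089), and the differences were -3.38 in MC38 (adjusted p = 8.1e-05) and -4.31 in LL2 (adjusted p = 8.3e-05).

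H2-Aa and H2-Eb1 had the same order. H2-Aa stood at 173 and 85.0 RPKM in Pan02, 17.9 and 24.9 in EO771, 1.78 and 1.17 in MC38, and 0.582 and 0.412 in LL2. H2-Eb1 stood at 176 and 90.5 RPKM in Pan02, 16.2 and 22.9 in EO771, 2.12 and 1.59 in MC38, and 0.426 and 0.527 in LL2. Both were higher in Pan02, by 4.82 (SE 0.27, adjusted p = 1.1e-05) and 4.85 (SE 0.25, adjusted p = 8.3e-06), and in EO771, by 1.53 (adjusted p = 0.0028) and 1.32 (adjusted p = 0.0041). The H2-Eb1 call in EO771 was lost without EO771 CAF library 2 (1.09, adjusted p = 0.055).

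H2-Ab1, the partner of H2-Aa, departed from it at the low end. It stood at 232 and 102 RPKM in Pan02 and 26.3 and 41.0 in EO771, but at 7.38 and 5.97 RPKM in LL2 and 5.40 and 2.32 RPKM in MC38. Per length it was 5.60 to 5.79 times Cd74 in LL2 CAFs and 1.00 to 1.99 times in MC38 CAFs, beside 0.513 to 0.594 in EO771 CAFs, 0.415 to 0.416 in Pan02 CAFs and 0.495 to 0.679 in the 15 tumors. It was higher in Pan02 by 3.87 (SE 0.36, adjusted p = 0.00013), lower in MC38 (-2.89, adjusted p = 0.00042) and lower in LL2 (-1.92, adjusted p = 0.0067). The LL2 call was lost without LL2 library 1 (adjusted p = 0.055) or 2 (adjusted p = 0.083), and in EO771 the difference of 0.94 did not pass (adjusted p = 0.06).

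**Figure D3:**
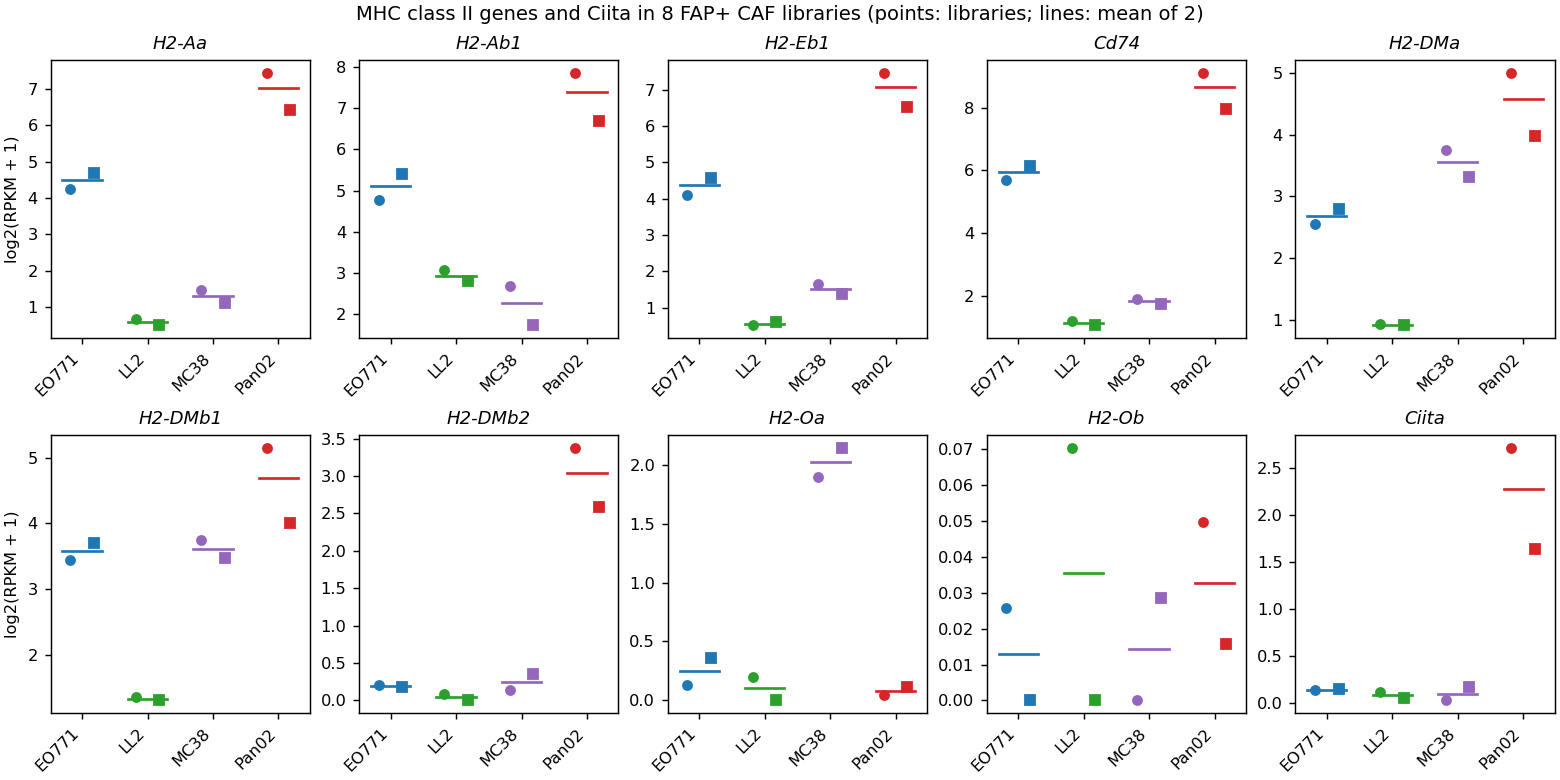
RPKM as log2(RPKM + 1) of each of the 10 genes in the 8 CAF libraries, by model; points are libraries and lines are log2(mean RPKM + 1). Cd74 falls from 246 to 556 RPKM in Pan02 to 1.07 to 1.28 RPKM in LL2, while H2-Oa is at 2.72 and 3.42 RPKM in MC38 and at no more than 0.287 RPKM elsewhere.

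H2-DMa and H2-DMb1 set MC38 CAFs apart from LL2 CAFs (adjusted p = 0.00059 and 0.0014). H2-DMa stood at 31.1 and 14.8 RPKM in Pan02, 12.5 and 8.99 in MC38, 4.87 and 5.91 in EO771, and 0.897 and 0.876 in LL2, and each of these neighbours differed (adjusted p = 0.033, 0.049 and 0.0051 down the order). MC38 thus stood above EO771 for H2-DMa, the reverse of their order for Cd74 and the class II chains. H2-DMb1 stood at 34.5 and 15 RPKM in Pan02, 12.4 and 10.1 in MC38, 9.83 and 12 in EO771, and 1.56 and 1.48 in LL2, with no separation of MC38 from EO771 (adjusted p = 0.94). Against the mean of the other models, Pan02 was higher by 2.12 (H2-DMa, SE 0.26, adjusted p = 0.00048) and 1.74 (H2-DMb1, SE 0.27, adjusted p = 0.0016), and LL2 was lower in both (-2.65, adjusted p = 0.0004, and -2.59, adjusted p = 0.00055).

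H2-DMb2 was measured at 9.40 and 5.02 RPKM in Pan02 and at 0 to 0.277 RPKM in the other 6 libraries, which is at most 2.5 reads in each of them. Both Pan02 libraries, with 118.5 and 70 reads, lay above all the others, whose values were too low to be put in order. Per length, H2-DMb2 was 0.272 to 0.334 of H2-DMb1 in Pan02 CAFs and 0 to 0.0366 in the other CAFs. The same ratio in tumors was 0.148 to 0.290 in Pan02 and 0.0267 to 0.208 in the other models. The paralog thus stood apart in Pan02 CAFs, whereas in tumors the ratios of Pan02 and LL2 overlapped, within the limit set by the sequence that the genes share.

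H2-Oa was highest in a different CAF model from the other members tested. It was measured at 2.72 and 3.42 RPKM in MC38, from 37.5 and 33 reads, and at 0.093 and 0.287 RPKM in EO771, 0.148 and 0 in LL2, and 0.030 and 0.080 in Pan02, from at most 6 reads each. Both MC38 libraries lay above the other 6, and Pan02, the model highest for the 8 other members tested, had 0.5 and 1.5 reads. In MC38 CAFs it stood per length at 1.00 to 1.48 times Cd74, beside 0.00303 to 0.00749 times in MC38 tumors. Its antisense neighbour BC051537 was at 0.432 and 0.552 RPKM in the MC38 CAF libraries and at no more than 0.213 RPKM in the others. H2-Ob, its partner chain, was at 0 to 0.050 RPKM in all 8 libraries, from 0 to 3 reads, and no difference was detectable at this depth.

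Ciita stood at 5.55 and 2.10 RPKM in Pan02 CAFs, from 462 and 193.5 reads, and at 0.022 to 0.126 RPKM in the other 6 libraries, from 1.5 to 11.5 reads. The Pan02 libraries lay far above the others, which overlapped. The GENCODE model of the transcript counted in CAFs shares 111 of 4360 bases (2.55%) with the antisense gene Dexi, and in the deposited table that transcript has 5146 bases. Dexi stood at 29.3 and 20.3 RPKM in the Pan02 CAF libraries and at 13.3 to 21.1 RPKM in the other 6. EO771 CAFs had Cd74 at 51.2 and 69.1 RPKM with Ciita at 0.103 and 0.112 RPKM. Per length, Cd74 was 497 to 617 times Ciita in EO771 CAFs, 100 to 117 times in Pan02 CAFs and 85.3 to 623 times in the tumors.

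Of the 6 members whose entry did not depend on their highest model, 6 were called higher in Pan02 CAFs, where 9.73% of 13598 genes were called higher and 8.41% lower. In EO771, 3 were higher (8.05% of genes higher, 7.06% lower). In LL2, 6 were lower (5.13% lower, 3.89% higher), and in MC38, 4 were lower (9.87% lower, 10.9% higher), while H2-DMa passed there without reaching the size for a call (0.85, adjusted p = 0.024). The medians of the 6 differences were 4.34 in Pan02, 1.13 in EO771, -2.58 in MC38 and -3.15 in LL2, with medians over all genes of -0.03 to 0. For all 6, both Pan02 libraries lay above the other 6 libraries, as did 20.0% of all genes. Of 36 tests between pairs of models 32 passed, where 48.1% passed over all genes: 6 of 6 for Pan02 against each other model and for EO771 against LL2, 5 between EO771 and MC38, and 3 between LL2 and MC38. In the test for any difference 6 of 6 passed, where 80.4% of genes did. Pan02 CAF library 1 was above library 2 for Cd74, the chains, the H2-M genes and Ciita, and the means carried wide errors, 401 ± 219 RPKM (SD, n = 2) for Cd74 against 60.2 ± 12.6 in EO771.

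Within libraries the chains and Cd74 kept close ratios where they were abundant. Per length, H2-Aa was 0.335 to 0.440 of Cd74 in the 15 tumors and 0.311 to 0.360 in Pan02 and EO771 CAFs, and H2-Eb1 was 0.289 to 0.354 of Cd74 in tumors and 0.316 to 0.367 in the same CAFs. H2-DMa was 0.0355 to 0.103 of Cd74 in tumors, highest in MC38 (0.0693 to 0.103) and at 0.0355 to 0.0437 in Pan02. In CAFs H2-DMa was 0.0560 to 0.0602 of Cd74 in Pan02 and 0.0856 to 0.0950 in EO771, but 0.704 to 0.823 in LL2 and 3.89 to 4.62 in MC38, where H2-DMb1 reached 4.35 to 4.57. MC38 CAFs therefore held more H2-M than invariant chain transcript, with Cd74 itself at 26 and 43.5 reads.

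**Figure D4:**
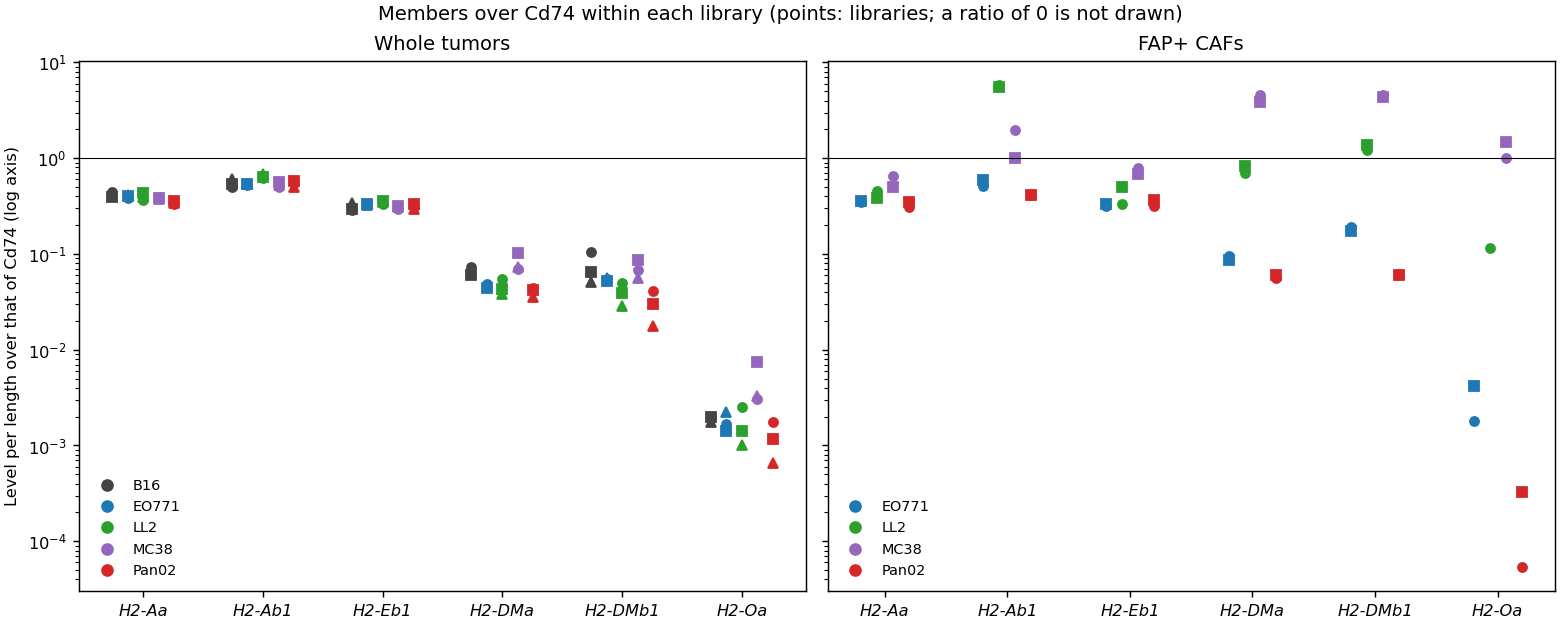
Ratio of each gene to Cd74 within each library, per length (log axis), by model and table; a ratio of 0 is not drawn. The chains lie in narrow bands in tumors, for example 0.335 to 0.440 for H2-Aa, whereas H2-DMa rises to 3.89 to 4.62 in MC38 CAFs.

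Ciita transcripts start at 3 places in the annotation used by the deposited tables, at 10480072 (3 transcripts), 10488178 (1 transcript) and 10489781 (1 transcript) of chromosome 16. The alternative promoters of this gene are known for use in dendritic and other myeloid cells, in B cells, and after interferon-γ, from the 5′ end to the 3′ end. Most of the exon sequence is common to all of them, so the start can show only in small differences between transcripts. Such differences also arise between transcripts of the same start. At the 5′-most start, 2 transcripts had 1463 and 1459 counts in Pan02 tumor 2, and 457 and 454 reads in Pan02 CAF library 1. The longest transcript from the 5′-most start held more counts than the one from the 3′-most start in 15 of 15 tumors, by 1.5 to 22 counts, as in Pan02 tumor 2 with 1463 against 1441. In the Pan02 CAF libraries the order was the other way, with 457 against 462 reads in library 1 and 192.5 against 193.5 in library 2, and in the other 6 CAF libraries the counts differed by at most 0.5. The differences are a few reads each and were not tested.

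Other genes of the pathway were read from fixed lists. Of the remaining class II genes, H2-Eb2, a β chain gene of low expression, was at 0.362 to 0.890 RPKM in Pan02 tumors and 0.0515 to 0.286 RPKM in the other tumors. The Pan02 tumors were its highest, and as it may have passed the filter through them alone, no test is given. In Pan02 CAFs H2-Eb2 was at 0.412 and 0.423 RPKM against at most 0.052 in the other CAFs, and it was not tested in CAFs. The pseudogene H2-Ea-ps did not exceed 0.216 RPKM. Of the 7 factors that sit on class II promoters with CIITA (Rfx5, Rfxap, Rfxank, Nfya, Nfyb, Nfyc and Creb1), 0 were called in any model by edgeR or DESeq2 in tumors, or by limma or edgeR in CAFs. Over all genes, 7.93% to 19.6% were called in a direction in a tumor model and 3.89% to 10.9% in a CAF model. Without the limit on size, 6 of the 7 differed among the tumor models and 5 of 7 among the CAF models, beside the 91.1% and 80.4% of all genes given above, with up to 4 of 7 in a pair of tumor models and 5 of 7 between EO771 and Pan02 CAFs. At an unadjusted p under 0.05, up to 5 of the 7 differed in a tumor model and up to 4 in a CAF model. Rfx5, for example, had a mean of 5.52 RPKM in Pan02 tumors (difference -0.08, adjusted p = 0.58) and 6.71 RPKM in Pan02 CAFs (0.18, adjusted p = 0.43).

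Genes of the interferon-γ axis, which induces Ciita, moved in different models. In Pan02 tumors the receptor chain Ifngr1 (1.35, adjusted p = 9.6e-07), its kinase Jak2 (1.43, adjusted p = 3.1e-07) and the feedback inhibitor Socs1 (1.12, adjusted p = 0.009) were higher. In MC38 tumors the cytokine Ifng (2.23, adjusted p = 0.0019) and the interferon-induced factor Irf1 (1.58, adjusted p = 8.2e-06) were higher, and in EO771 tumors both were lower (-2.27, adjusted p = 0.019, and -2.09, adjusted p = 5e-06). MC38 and EO771 tumors had Cd74 at 1014 and 956 CPM on average, with Irf1 at 197 and 25.9 RPKM. In B16 tumors Socs1 and Ifngr1 were lower.

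In CAFs Ifng was too low to be tested. Pan02 was higher in Jak2 (1.59, adjusted p = 2.3e-05), with a mean of 31.1 RPKM, and lower in Irf8 (-1.28, adjusted p = 0.00017), a factor of myeloid and B cells. MC38 was higher in Socs1 (1.02, adjusted p = 0.00098) and lower in Jak2 (-1.23, adjusted p = 8.3e-05). Irf1 was not called in any CAF model. It stood at 209 and 80.8 RPKM in Pan02, 97.2 and 106 in MC38, 83.3 and 61.2 in LL2, and 53.2 and 61.0 in EO771. Pan02 library 2 was thus below both MC38 libraries. Ciita was at 5.55 and 2.10 RPKM in Pan02 and at 0.022 and 0.126 RPKM in MC38, and its relation to Irf1 was not tested. EO771 CAFs were higher in Irf8 (2.52, adjusted p = 1.8e-05).

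Genes of peptide generation and of costimulation separated Pan02 CAFs from EO771 CAFs. The protease Ctss, which trims the invariant chain in professional antigen-presenting cells, had a mean of 33.5 RPKM in EO771 (higher by 3.60, adjusted p = 5.6e-06) and 3.16 RPKM in Pan02 (-0.45, adjusted p = 0.026). Ctsl (-1.92, adjusted p = 4e-05), a protease with that role in other cells, and the thiol reductase Ifi30 (-1.47, adjusted p = 3.9e-05) were lower in Pan02, the 2 genes of 6 called there. Over all genes, 8.41% were called lower in Pan02 CAFs and 9.73% higher. Of the costimulation genes, Cd40 (3.30, adjusted p = 4.6e-06) and Icosl (2.33, adjusted p = 1e-05) were higher in EO771, and Cd80 and Cd83 were over the filter there alone, whereas Cd40 (-2.35, adjusted p = 7.4e-06) and Icosl (-1.50, adjusted p = 2.7e-05) were lower in Pan02. Ctsl was higher and Ctss and Cd40 lower in LL2, and Ifi30 was higher in MC38. In tumors, Pan02 was higher in Ctss (1.41, adjusted p = 0.0045) and March1, 2 of 7 genes, and in Cd83 (1.98, adjusted p = 0.0015) and Cd80 (1.31, adjusted p = 0.00037), 2 of 5. Over all genes, 18.8% were called higher in Pan02 tumors.

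Markers of the cells that could carry class II were read beside these results. In bulk RNA, more cells of a type and more RNA per cell cannot be told apart. In Pan02 tumors, 5 of 9 macrophage genes, 5 of 7 dendritic cell genes, both B cell genes tested, 1 of 5 T cell genes and 1 of 5 general leukocyte genes were called higher, with 9 of 9 fibroblast, 5 of 5 epithelial and 2 of 5 endothelial genes, where 18.8% of all genes were. The T cell and leukocyte shares were thus close to that of all genes. The median difference was 5.53 over the epithelial genes, 2.59 over the fibroblast genes, 1.57 over the dendritic cell genes, 1.30 over the macrophage genes and 0.81 over the leukocyte genes. The summed macrophage level was 1261 to 5329 RPKM in Pan02, 386 to 753 in B16, 1502 to 1721 in EO771, 1069 to 2368 in LL2 and 1191 to 2018 in MC38. B16 tumors were lower in 9 of 9 macrophage and 5 of 5 leukocyte genes, where 19.6% of all genes were. The class II members pointed the same way there, with a median difference of -0.83, although 0 were called. Cd74, for example, differed by -0.96 (edgeR, SE 0.53, adjusted p = 0.13). Relative to Ptprc, which encodes CD45, Cd74 stood per length at 163 to 190 in the 3 Pan02 tumors and at 21.2 to 87.7 in the other 12, and relative to the macrophage gene C1qa at 1.63 to 3.61 in Pan02 and 0.497 to 3.45 in the others. The part of each cell type in the tumor levels was not tested.

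**Figure D5:**
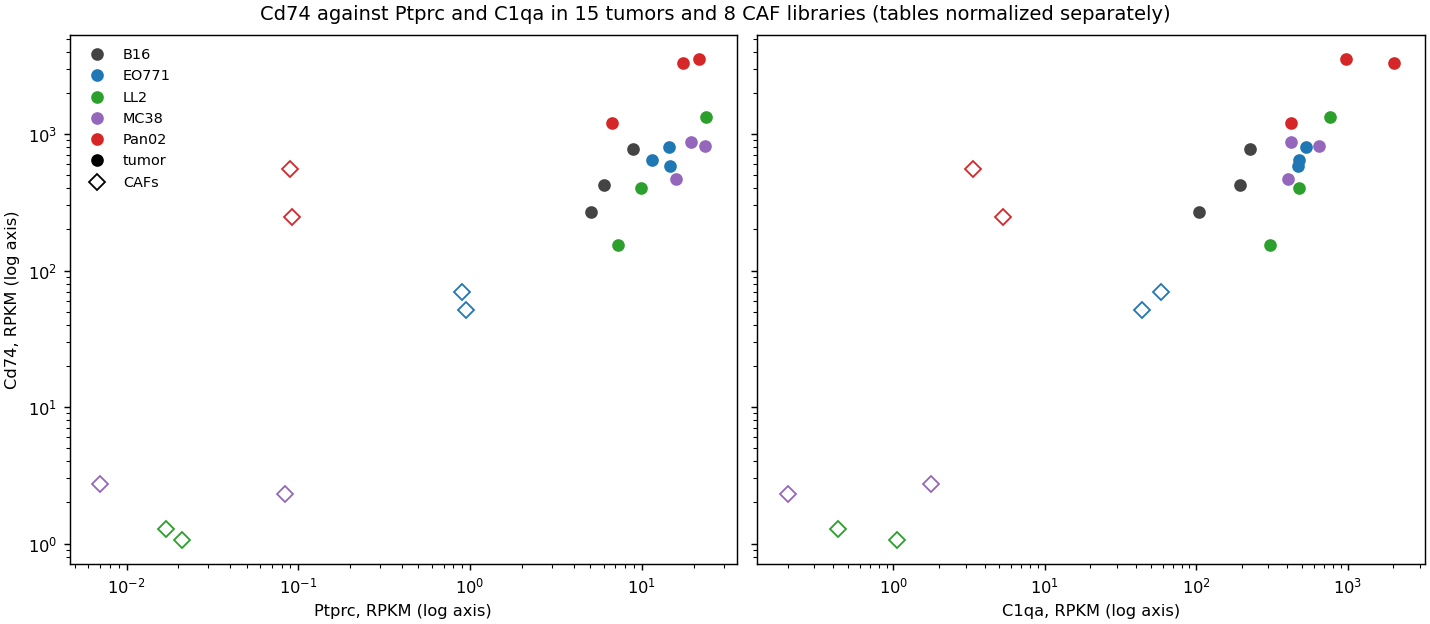
Cd74 against markers of other cells in each library, in RPKM on log axes; filled circles are tumors and open diamonds CAFs. Pan02 CAFs have Cd74 at 246 and 556 RPKM with Ptprc at 0.092 and 0.090 RPKM, whereas EO771 CAFs have Cd74 at 51.2 and 69.1 RPKM with Ptprc at 0.947 and 0.902 RPKM.

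The marker values differed between the CAF models with class II. In EO771 CAFs, Ptprc stood at 0.947 and 0.902 RPKM, C1qa at 44.0 and 58.4 RPKM, the summed leukocyte level at 29.9 to 33.1 RPKM and the summed macrophage level at 154 to 196 RPKM, while several of these genes were over the filter in EO771 alone and are not counted. The ratio of Cd74 to C1qa was 1.16 to 1.18 in EO771 CAFs and 1.23 to 1.52 in EO771 tumors. The ratio of Cd74 to Ptprc was 54.1 to 76.6 in these CAFs and 39.8 to 56.5 in the tumors. Because Cd74 was counted on a shorter transcript in CAFs, small differences between these ranges are not read. In Pan02 CAFs, limma called 0 of 9 macrophage genes higher, where 9.73% of all genes were, and 1 lower, with a median difference of -0.28. The number higher stayed at 0 before adjustment (p under 0.05) and with edgeR on reads. Csf1r, Adgre1, Mrc1 and Fcgr1 passed the filter only with the EO771 libraries, which are part of the comparison. A higher call was thus hardly possible for these genes, and the number 0 cannot show whether macrophage transcripts were lacking. The values themselves were low: in Pan02 CAFs, Ptprc stood at 0.090 and 0.092 RPKM, C1qa at 3.33 and 5.29 RPKM and the summed macrophage level at 19.2 to 24.0 RPKM. Cd74 there was 46.5 to 167 times C1qa and 2680 to 6180 times Ptprc. The summed leukocyte level of 17.9 to 29.6 RPKM in Pan02 CAFs was made almost wholly by Cd53 at 16.1 and 28.1 RPKM, the other 4 genes being under 1 RPKM. Summed B cell markers stayed at 0.761 to 0.836 RPKM in Pan02 CAFs and 3.91 to 4.91 in EO771 CAFs, summed dendritic cell markers at 1.97 to 2.27 and 7.59 to 8.05, and T cell markers at no more than 0.713 in any CAF library. In LL2 and MC38 CAFs the summed leukocyte level was 1.68 to 3.08 RPKM and the summed macrophage level 12.5 to 15 RPKM.

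Fap, the gene of the surface protein used for sorting, was at 1.89 to 11.4 RPKM in the 8 CAF libraries. Epithelial genes were the other markers that were high in Pan02 CAFs. Their summed level was 832 to 1121 RPKM in Pan02, 494 to 500 in EO771, 200 to 209 in LL2 and 1.72 to 3.73 in MC38. Krt18, a simple-epithelium keratin, stood at 349 and 483 RPKM in Pan02 CAFs, 97.2 and 101 in LL2 CAFs, and at no more than 1.40 in EO771 and MC38 CAFs. Krt8, its partner, stood at 385 and 545 RPKM in Pan02, 492 and 495 in EO771, 84.2 and 90.5 in LL2, and at most 0.274 in MC38. The keratins of the CAFs resembled those of the whole tumors in Pan02, LL2 and EO771: Krt18 was at 664 to 958 RPKM in Pan02 tumors, 191 to 309 in LL2 tumors and no more than 2.73 in the other models, and Krt8 at 667 to 702 RPKM in EO771 tumors. In MC38, Krt8 was at 30.5, 2.32 and 1.58 RPKM in the tumors and lower in the CAFs. Pan02 CAFs were lower in 3 of 9 fibroblast genes, Thy1, Col3a1 and Fap, where 8.41% of all genes were called lower. Their summed fibroblast level was 2386 to 3880 RPKM, beside 8980 to 9733 in EO771, 7011 to 8254 in LL2 and 1530 to 6551 in MC38. Keratin transcripts were thus abundant in the libraries labelled as CAFs in 3 of 4 models, and which cells of the sort carried the class II transcripts was not tested. Of the other labels, the summed melanocyte level was 10350 to 12590 RPKM in B16 tumors and 4.29 to 14.2 RPKM in the tumors of the other models. Since B16 was part of the comparison for each other model, a lower call there was set by B16, and calls are not counted. In CAFs 0 of these genes were tested.

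Genes whose pattern was most like that of the class II genes were found by Pearson correlation on log2 levels, given as a description, since libraries share models and depth. Over the 15 tumors, the mean of H2-Aa, H2-Ab1, H2-Eb1 and Cd74 was tracked by Mir5107 (0.994), a microRNA gene lying within Cd74 that shares bases with it, then Zfp831 (0.935), Cd6 (0.907), Arl5c (0.900) and Il2ra (0.895). For Ciita they were Lag3 (0.891), Cd6 (0.887), Rhof (0.880), Gbp8 (0.877) and Cd226 (0.871). Of the members, H2-DMa was closest to the chains (0.929), then H2-Ob (0.855), Ciita (0.845), H2-DMb1 (0.841) and H2-DMb2 (0.803), and H2-Oa was the farthest (0.691). Over the 8 CAF libraries the chains were tracked by Il1rn (0.998), Epn3 (0.997), Stim1 (0.992), Acer3 (0.992) and Napsa (0.990). H2-DMb2, Ciita and H2-Oa entered there through a single model each. Correlations with them were thus largely set by the filter and are not given. Cd6, Il2ra, Lag3 and Cd226 of the tumor lists are lymphocyte genes. The CAFs had been depleted of CD45+ cells, and their summed T cell markers did not exceed 0.713 RPKM. Lymphocyte genes could thus hardly enter the CAF list, and the lists of tumors and CAFs are not compared.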

How the data were processed

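PolyA RNA was sequenced from unstranded libraries of 15 tumors and 8 sorted CAF samples. Per the labels and methods, the authors aligned reads to mm10 with STAR 2.5.0c and counted them with HOMER; HOMER's version is not given in the sources used here. The deposited tumor table holds estimated counts per RefSeq transcript in steps of 0.5 read. Its title calls the counts normalized, but the steps and the unequal totals are those of counts that were not scaled, so they were taken as such and rounded up to whole numbers. The deposited CAF table holds RPKM values made by the authors, from which whole or 0.5-step reads were recovered. Each table lists 40458 transcripts, 2 of which name no gene (2.08e-05% of the tumor counts) and were left out. Another 5 per-sample columns were not analysed here. Tumors titled Pan01 carry the cell line label Pan02 and were grouped by it.

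Tumor totals were 10035173 to 21946486 counts (median 16541399) and recovered CAF totals 6223440 to 19537703 reads, so that members under about 10 reads are imprecise. Tumors were fitted with edgeR 4.0.16 (TMM, filterByExpr, quasi-likelihood) and CAFs with limma 3.58.1 (trend) on log2(RPKM + 1), keeping genes of at least 1 RPKM in at least 2 libraries, in R 4.3.3, each table with all its libraries. Each model was set against the mean of the others and against each other model, p-values were adjusted over all genes tested (Benjamini-Hochberg), and a call needed an adjusted p under 0.05 and a log2 difference of at least 1. CPM and tumor RPKM were computed with TMM-scaled totals. The CAF columns carry no replicate number, and their libraries are numbered in column order. DESeq2 1.42.0, other scalings, filters, pseudocounts and transcripts, a replicate block and leaving out each library were the alternatives. Scripts were tested on simulated data. All 10 members were named, and the members, gene lists and tests were chosen with earlier results of these data known. Lists covered other class II genes, promoter factors, the interferon-γ axis, antigen processing, costimulation and cell type markers. Part of the interferon-γ axis is not reported here, so its genes are given singly and not counted.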

Additional observations from a re-analysis of the deposited data

How the results depend on the processing

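No called member changed direction under any alternative run: total-count and DESeq2 scaling, DESeq2 itself, no filter on low values, counts rounded down, the transcript with the smallest mean, a pseudocount of 0.1, no variance trend, edgeR on recovered CAF reads, and leaving out each library. The median of all genes was 0.14 in MC38 and -0.06 in Pan02 tumors with scaling by total counts, and 0 and 0.05 with TMM. With one library left out, a lone CAF library is assumed to vary like the other groups, and the counts ranged as follows: members that differed among tumor models 4 to 10, members called against the other tumor models 11 to 20, pair tests passed among tumors 19 to 48, members lower in LL2 tumors 0 to 8, and members higher in Pan02 tumors 7 to 10. The low values, 4 and 19, came without Pan02 tumor 2, and for LL2 0 came without LL2 tumor 1 or 2 and 8 without LL2 tumor 3. For CAFs only the sizes of the differences are given, for the 6 members whose entry did not depend on their highest model. In Pan02 CAFs they ranged from 5.00 to 6.17 for Cd74, 4.31 to 5.33 for H2-Aa and 4.38 to 5.33 for H2-Eb1. The ranges were 3.28 to 4.45 for H2-Ab1, 1.61 to 2.63 for H2-DMa and 1.17 to 2.31 for H2-DMb1. Low counts limit H2-Oa, H2-Ob and H2-DMb2 in most CAF libraries.

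Deviations of same-numbered tumors of different models correlated at -0.17 to 0.26 (30 pairs, median 0.03), beside a median of 0.01 for other numbers. Of the 15 tumors, 8 correlated best with their own number. Whether same-numbered tumors were handled together was not tested, and the main fit used no pairing. With the replicate number as a block, 9 members differed, 14 were called, 35 pair tests passed, and Pan02 was higher in 10 and LL2 lower in 2, against 9, 14, 34, 10 and 2 without it; Cd74 in Pan02 changed from 2.10 to 2.02 and Ciita from 1.48 to 1.43. No paired analysis was possible for CAFs because their columns carry no replicate number.

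Without the filter on low values, H2-DMa in MC38 CAFs no longer passed (0.85, adjusted p = 0.055), and the cause was not tested. H2-Oa reached 1 RPKM in the 2 MC38 CAF libraries alone. Leaving out either of them thus removed H2-Oa through the filter, which asks for 2 such libraries.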
